A study of Drosophila melanogaster with 2 samples.

Results

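The regions described here are 952 moderate anti-GFP ChIP-seq peaks that were found in replicate 2 only, of 3087 pooled peaks on the main chromosome arms (30.8%). They were chosen by measured values, so the choice is itself no result: the pooled signal was below 300, the pooled peak overlapped a peak in the thresholded list of replicate 2 by at least 1 bp, and it overlapped none in the thresholded list of replicate 1. The pooled list held 3126 peaks in all, and the lists of the replicates held 2561 peaks for replicate 2 and 1511 for replicate 1 on the main arms. The other moderate peaks were 994 in both replicate lists, 204 in the replicate 1 list only and 654 in neither, and 283 further pooled peaks had a signal of 300 or more.

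Both replicates belonged to 1 group, whole klu-GFP embryos collected from 0 to 24 h of development, with an insertion that expresses Klu fused to eGFP. Chromatin was sheared by Bioruptor sonication and precipitated with an antibody against GFP. Replicates 2 and 1 were biological replicates. No control library was analysed here, whole embryos mix all cell types, and the lists give positions, signals and scores but no read counts, so the depth is unknown.

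The product of klumpfuss, Klu, binds DNA through zinc fingers and belongs with the EGR and Wilms tumour proteins of vertebrates. In Drosophila it is known for its part in neuroblast self-renewal and in the development of sensory organs. Proteins of the EGR family bind G-rich sites with the core GTGGGCG. A different site, the DRE (TATCGATA), is bound by Dref, a factor found at promoters of many growth and housekeeping genes.

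The sequences below run 50 bases to either side of the pooled summit, on the plus strand of dm6 as read from the RefSeq copy of BDGP release 6, and they stand in the order of the results that follow. The first 3 are among the 4 members of highest signal, where capitals mark the longest run of A and T. They lie at chr3R:18172394-18172494 (400 bp upstream of wrd, a regulatory subunit of protein phosphatase 2A), chr3L:14551100-14551200 (175 bp upstream of Gbs-70E, a glycogen-targeting subunit of protein phosphatase 1) and chr3L:13920320-13920420 (405 bp upstream of Rgl, an exchange factor for the GTPase Ral).
wrd: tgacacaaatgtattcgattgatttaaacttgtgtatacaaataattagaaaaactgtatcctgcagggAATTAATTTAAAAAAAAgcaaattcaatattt
Gbs-70E: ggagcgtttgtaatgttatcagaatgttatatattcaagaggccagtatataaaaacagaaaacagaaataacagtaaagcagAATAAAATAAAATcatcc
Rgl: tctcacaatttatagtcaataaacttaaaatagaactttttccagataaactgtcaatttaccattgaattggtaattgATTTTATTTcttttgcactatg
The next 4 lie at promoters of ribosomal protein genes and were the 4 of highest signal among those whose windows lay clear of annotated untranslated regions, one chromosome arm being left out, with the longest A and T run in capitals, which is only 4 bases long in RpL22 and 6 in RpL34a. They lie at chr3L:11822593-11822693, chrX:765190-765290, chr3R:26059358-26059458 and chr2L:4458475-4458575.
RpL10Ab: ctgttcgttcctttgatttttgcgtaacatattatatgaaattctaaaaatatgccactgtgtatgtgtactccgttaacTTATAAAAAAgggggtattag
RpL22: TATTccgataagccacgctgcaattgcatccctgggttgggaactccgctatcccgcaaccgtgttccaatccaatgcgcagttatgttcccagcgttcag
RpL34a: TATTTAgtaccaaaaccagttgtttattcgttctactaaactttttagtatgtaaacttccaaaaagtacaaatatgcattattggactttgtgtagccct
RpL27A: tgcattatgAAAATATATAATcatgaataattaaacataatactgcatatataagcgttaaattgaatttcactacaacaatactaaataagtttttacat
The next 3 hold a DRE, in capitals, and lie near Sfmbt, a Polycomb group gene, at chr2L:13176820-13176920, near cnc, the fly homologue of Nrf2, at chr3R:23190084-23190184, and near Larp7, a La-related protein, at chrX:9243653-9243753.
Sfmbt: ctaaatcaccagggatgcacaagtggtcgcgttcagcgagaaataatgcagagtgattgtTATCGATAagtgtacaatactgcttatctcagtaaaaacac
cnc: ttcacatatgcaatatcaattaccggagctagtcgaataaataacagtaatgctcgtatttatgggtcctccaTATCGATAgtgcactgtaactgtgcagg
Larp7: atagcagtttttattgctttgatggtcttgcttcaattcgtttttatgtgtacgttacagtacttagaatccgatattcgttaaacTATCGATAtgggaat
The last 3 hold the longer EGR site, GCGTGGGCG or GCGTGGGTG, in capitals. They lie at chrX:6352073-6352173 (159 bp upstream of kdn, the citrate synthase gene, also among those 4 members), at chr3L:19091799-19091899 (821 bp upstream of MESR6) and at chr2L:3355968-3356068 (1189 bp upstream of E23, an ABC transporter gene).
kdn: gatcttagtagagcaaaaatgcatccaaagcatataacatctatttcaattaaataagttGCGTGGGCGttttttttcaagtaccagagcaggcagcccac
MESR6: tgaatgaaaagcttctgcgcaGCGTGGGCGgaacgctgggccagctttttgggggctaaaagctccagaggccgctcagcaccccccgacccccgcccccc
E23: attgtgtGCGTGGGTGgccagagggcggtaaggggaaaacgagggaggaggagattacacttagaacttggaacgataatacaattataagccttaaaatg

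The full ranked list of replicate 1 held 116399 peaks on the main arms and covered 25.7% of their length, so an overlap with it does not by itself show a peak at the same site. It overlapped 887 of the 952 members (93.2%), against 635 of 654 peaks in neither list (97.1%) and 3000 of all 3087 (97.2%). The score of the matching peak had a median of 187 on a scale whose threshold was 830. In 320 of the 887 that score was under 100. The signal of the matching peak, the one with the nearest summit in each replicate's own list, had a median of 65.7 in replicate 2 and 34.4 in replicate 1, and it was higher in replicate 2 for 853 of 887 members. The median log2 ratio of replicate 2 over replicate 1 was 1.03 for the members and 0.39 for peaks in both lists. For 22 members the nearest summit belonged to a replicate 2 peak under the threshold and not to the one that chose the member, and these include 12 of the 34 members that were not higher in replicate 2. With the strongest overlapping peak of each replicate, a match chosen after seeing the data, 878 of 887 were higher in replicate 2. These values come from the contrast that chose the members, so they describe the choice.

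**Figure D1:**
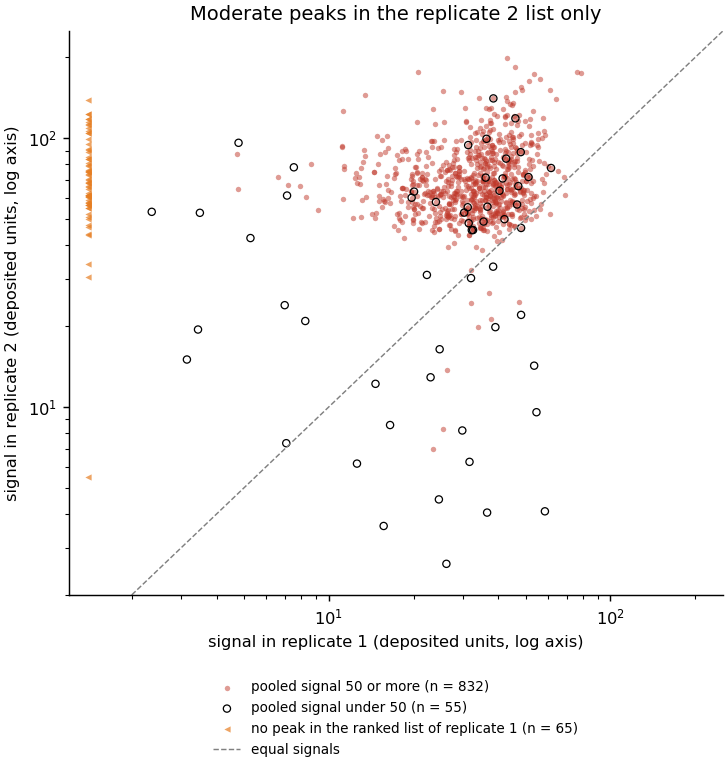
Signal of the matching peak in replicate 2 (vertical, log axis) against replicate 1 (horizontal, log axis), in deposited units, for the 952 members. Each point is 1 peak, triangles at the left edge are the 65 members with no peak in the ranked list of replicate 1, and 853 of the other 887, matched by nearest summit, lie above the dashed line of equal signals.

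The median pooled signal of the members was 96.9 (range 2.21 to 250.5), against medians of 157.7 for peaks in both lists, 90.5 for the replicate 1 list only and 73.2 for neither. A total of 807 members (84.8%) had the highest score of 1000, against 99.3% of peaks in both lists and 78.7% of all pooled peaks. A peak of the conservative list overlapped 563 members (59.1%), fewer than the 73.0% of all pooled peaks. That share was 99.3% for both lists, 75.5% for the replicate 1 list only and 41.3% for neither. Of the members, 60 had a signal below 50, and 59 of these were secondary, which means that they overlapped a pooled peak of higher signal. Those 60 had a mean GC content of 42.4% ± 1.25 at the summit and the other 892 a mean of 33.6% ± 0.341 (SE over peaks).

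At the edges of the rule, the 2 members of highest signal were wrd (250.5) and Gbs-70E (249.3), and outside it stood 3 peaks of the replicate 2 list only at CG32982 (308), numb (410) and Gapdh2 (464), none with a peak in the ranked list of replicate 1. The members nearest to the replicate 1 threshold were a peak in bnl, with a score of 828 in that replicate, and 3 peaks with 825, of which 2 were in CG12769 (pooled signals of 92.5 and, for a secondary peak, 3.07) and 1 was at scb (159). The pooled peaks at rumi and Usp12-46 fell just outside, with a replicate 1 score of 831. For replicate 2, members at Aldh (831) and mRpS18B (832) were just inside, and peaks at Dd (829) and CG10418 (828) just outside.

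The 15 members of highest signal ran from 197.5 to 250.5, and 12 of them lay in promoters. A promoter here is a summit within 500 bp of an annotated gene start. At kdn, replicate 2 gave a signal of 198 and replicate 1 one of 42.8. The wrd peak had 177 in replicate 2 and 76.1 in replicate 1. The peak upstream of Sirt1, a NAD-dependent deacetylase gene, had 176 in replicate 2 and 20.7 in replicate 1. The peak at Pdp1, which encodes a bZIP transcription factor of the circadian clock, had 183 in replicate 2 and 45.7 in replicate 1. In all 11 of the 15 that had a peak in both ranked lists, the replicate 2 signal was the higher, which describes the choice of members. The other 4, at Gbs-70E, Su(Tpl), fl(2)d and Pli, had no peak in the ranked list of replicate 1.

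The 65 members with no replicate 1 peak at all had a median pooled signal of 97.5, with 42 (64.6%) in promoters and a mean GC content of 33.5% ± 1.32. Members with a replicate 1 score under 100 had a GC content of 33.0% and a promoter share of 56.2%, and those with a score of 540 or more had 34.2% and 55.0%.

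Most member summits lay in promoters, and those within 500 bp of a protein-coding start lay mainly upstream of it. Of 952, 547 were in promoters (57.5%, 95% Wilson interval 54.3 to 60.6), 280 in introns (29.4%) and 111 between genes (11.7%). Promoter shares were 53.4% (50.3 to 56.5) for peaks in both lists, 36.3% (30.0 to 43.1) for the replicate 1 list only, 33.5% (30.0 to 37.2) for neither and 74.9% for peaks of signal 300 or more. Only 2 members lay in coding exons (0.210%), against 8 of 204 peaks of the replicate 1 list only (3.92%) and 33 of 654 in neither (5.05%). Intervals cover counting error over peaks only.

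Of 523 members within 500 bp of a protein-coding start, 432 were upstream (82.6%), with a median position of -105 bp, and 300 lay 50 to 250 bp upstream. For peaks in both lists the median was -114.5 bp and 81.4% were upstream. Members fell between divergent gene pairs in 255 cases (26.8%, interval 24.1 to 29.7), against 219 of 994 peaks in both lists (22.0%, 19.6 to 24.7) and 25 of 204 in the replicate 1 list only (12.3%).

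**Figure D2:**
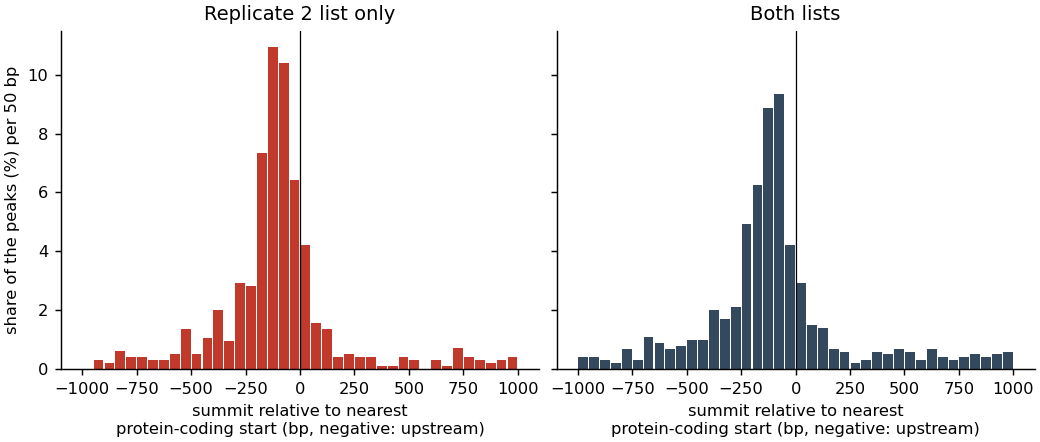
Share of peaks (vertical, per 50 bp bin) by the position of the summit relative to the nearest protein-coding start (horizontal, bp, negative upstream), for members on the left and moderate peaks in both lists on the right. Both distributions peak upstream of the start, with medians of -105 bp and -114.5 bp within 500 bp.

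The members were A and T rich at the summit. Over the window of 50 bases to either side, their GC content averaged 34.1% ± 0.337 (SE over peaks), against 43.3% in windows 1 kb away. It was 34.6% ± 0.332 for peaks in both lists, 42.5% ± 0.818 for the replicate 1 list only and 42.1% ± 0.452 for neither. A GC content below 20% was found in 64 members (6.72%) and in 35 of 994 peaks in both lists (3.52%). An uninterrupted A and T run of at least 20 bases stood at 65 member summits (6.83%) and at 13 (1.37%) of their flanks. Around the summit the low-GC stretch was wider for the members: 100 bp to either side, mean GC was 39.1% and 37.99% for members and 41.0% and 41.4% for peaks in both lists.

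**Figure D3:**
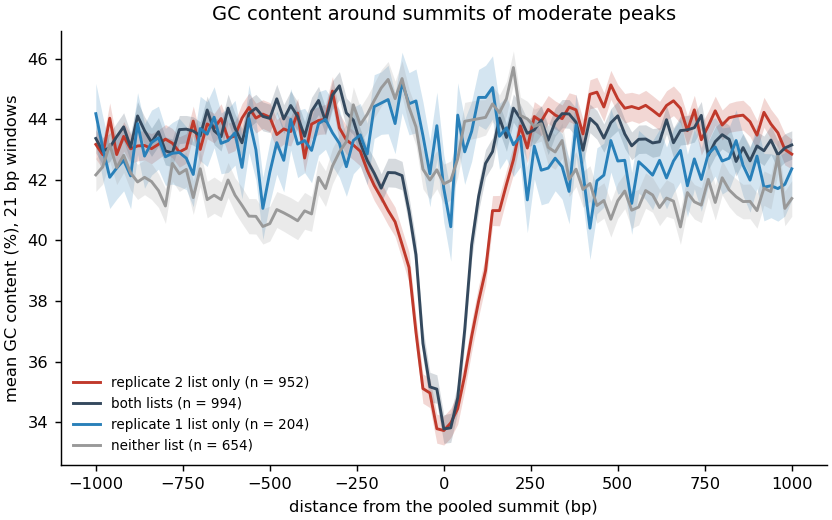
Mean GC content in 21 bp windows (vertical, %) by distance from the pooled summit (horizontal, bp), with bands of 1 SE, for the 4 classes of moderate peaks. The members and the peaks in both lists share a dip to 33.7% and 33.8% at the summit, and the other 2 classes show a shallow one.

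Since the classes differed in signal, values were compared within the signal range 80 to 120, which was chosen after the data had been seen. The range did not match signal fully. Median signals in it were 96.3 for members, 108.6 for both lists, 96.2 for the replicate 1 list only and 86.8 for neither. There, mean GC was 34.4% ± 0.457 for 517 members, 36.7% ± 0.853 for 138 peaks in both lists, 42.1% ± 1.10 for 118 of the replicate 1 list only and 38.4% ± 0.752 for 183 in neither. Promoter shares in the same range were 53.6% (49.3 to 57.8), 44.2% (36.2 to 52.5), 37.3% (29.1 to 46.3) and 33.3%. From 80 to 100 the shares were alike, 51.0% of 300 members and 51.4% of 35 peaks in both lists. From 100 to 120 they were 57.1% of 217 and 41.7% of 103. Among members split by signal into 5 groups of 190 or 191, from low to high, promoter shares were 57.6%, 48.9%, 55.3%, 55.8% and 69.6%, with no steady order. Mean GC in the same groups was 37.5%, 35.0%, 33.8%, 33.2% and 31.0%. The lowest group held 68 secondary peaks, and its 131 members of signal 50 or more had a mean GC of 35.2% ± 0.929.

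**Figure D4:**
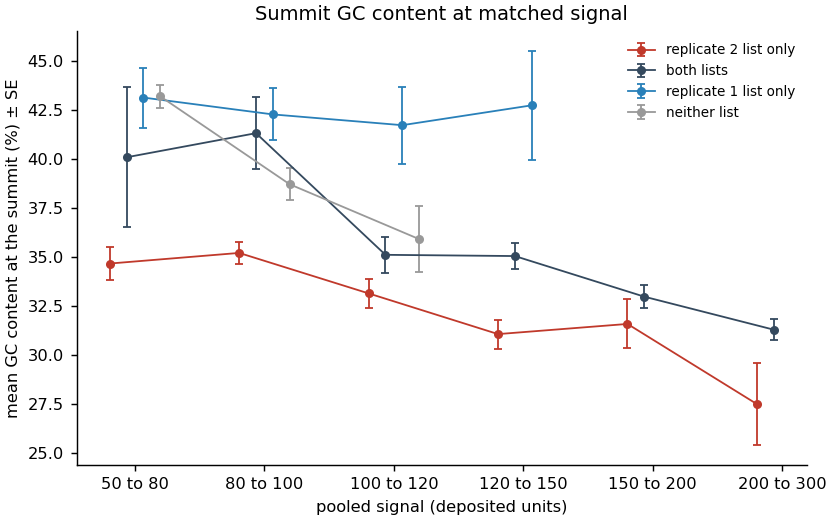
Mean GC content at the summit (vertical, %, bars ± SE over peaks) in ranges of pooled signal (horizontal, deposited units) for the 4 classes of moderate peaks, with signals below 50 and classes of under 10 peaks in a range left out. Members have the lowest mean in each range shown.

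The DRE, searched on both strands (it is a palindrome), stood within 50 bp of 21 member summits (2.21%, interval 1.45 to 3.35), against 11 of 994 summits in both lists (1.11%, 0.619 to 1.97), 1 of 204 in the replicate 1 list only and 6 of 654 in neither. None of the 952 member flanks held one, which allows up to 0.315% by a limit of 3 counts of the total (Wilson upper bound 0.402%). All 21 were in promoters, where they were 3.84% of the promoter members, against 2.07% of promoter summits in both lists, 2.74% of those in neither and 0.943% of those of signal 300 or more. It was in 1.95% of 19253 promoter windows of the same length and in 0.274% of windows tiling the genome. The promoter windows were centred 105 bp upstream of annotated starts, farther out than most DRE members, so they are no matched background for them. The intervals of the members and of peaks in both lists overlap. The M1BP site GGTCACAC stood at 14 member summits (1.47%, 0.878 to 2.45), of which 13 within 100 bp of a start, against 4 peaks in both lists (0.402%, 0.157 to 1.03). Over promoter summits it was 2.38% for members, 0.377% for both lists, 2.70% (2 peaks) for the replicate 1 list only and 0.457% for neither. It was in 1.12% of the promoter windows, which are no matched background for M1BP members either. The M1BP intervals of the members and of peaks in both lists also overlap. DRE members had a median distance of 42 bp to the start and M1BP members one of 29 bp.

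The core EGR site, GTGGGCG or GTGGGTG on either strand, was at 42 member summits (4.41%, 3.28 to 5.91) and 28 flanks (2.94%), at 39 peaks in both lists (3.92%), 10 in the replicate 1 list only (4.90%) and 36 in neither (5.50%). It was in 3.49% of the genome windows. Over promoter summits it was 4.94% for members, 3.58% for both lists and 6.39% for neither, with 2.58% of promoter windows. The longer site, which contains the shorter one, was at 7 member summits (0.735%, 0.357 to 1.51) and 2 flanks, at 6 summits in both lists (0.604%) and at 10 in neither (1.53%, 0.833 to 2.79). Over promoter summits it was 0.914% for members, 0.565% for both lists and 1.83% for neither, with 0.177% of promoter windows. TATAAA was at 212 member summits (22.3%) and 116 flanks (12.2%), and at 217 summits in both lists (21.8%). GAGAGAG was at 19 member summits (2.00%) and 13 flanks (1.37%), at 10 summits in both lists (1.01%) and at 13 in neither (1.99%). It was in 1.24% of the genome windows. Over promoter summits it was 2.56% for members, 1.32% for both lists and 4.57% for neither, with 4.38% of promoter windows. The Su(H) site CGTGGGAA or TGTGGGAA, which Notch signalling uses, was at 10 member summits (1.05%, 0.572 to 1.92) and 5 flanks (0.525%). It was at 3 summits in both lists (0.302%, 0.103 to 0.884), 2 in the replicate 1 list only (0.980%) and 6 in neither (0.917%). Over promoter summits it was 1.28% for members, 0.377% for both lists and 0.913% for neither, with 0.649% of promoter windows. The Zelda site CAGGTAG was at 1 member summit and 6 in both lists. The E-boxes CACGTG and CAGCTG, both palindromes, were at 8 (0.840%) and 44 (4.62%) member summits. In both lists they were at 14 (1.41%) and 28 (2.82%). Member flanks held them in 0.735% and 6.41% of cases, and the genome windows in 1.17% and 4.24%. CAGCTG was also at 39 summits in neither list (5.96%). ATATATA was at 70 member summits (7.35%) and 32 flanks (3.36%), and at 71 summits in both lists (7.14%). A match is a description of letters and says nothing of binding.

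Of 13945 protein-coding genes, 840 (6.02%) had a member summit no more than 1 kb from a start and 813 (5.83%) had a moderate peak of both lists, with 55 genes in both counts. Cytoplasmic ribosomal protein genes, which code for the proteins of the ribosome, had a member in 20 of 88 cases (22.7%) and a moderate peak of both lists in 14 of 88 (15.9%). No test is given, since the lists were chosen with earlier results known. Of the 20 genes, 17 encode proteins of the large subunit and 3 of the small subunit, and all 20 peaks were in promoters. Under the conservative list 9 genes had a member and 15 a moderate peak of both lists, the reverse order.

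The pooled signal of the ribosomal protein peaks ran from 66.1 to 154.5. The RpL23 peak had 88.6 in replicate 2 and 36.8 in replicate 1. The RpL26 peak had 114 in replicate 2 and 37.5 in replicate 1. The RpL34a peak had 87.3 in replicate 2 and 15.1 in replicate 1, with its summit 141 bp upstream of RpL34a and nearer to Trmt61. These 3 were among the 19 of 20 that were higher in replicate 2, a direction that comes from the contrast that chose the members. Among peaks with a replicate 1 match, 96.2% of members and 77.2% of all pooled peaks were higher in replicate 2. The peak counted for RpL18 lay 401 bp from its start and 65 bp from that of Neos, and its nearest replicate 2 summit was a peak of score 41, under the threshold, with a signal of 24.6, against 47.2 in replicate 1. The strongest overlapping peaks there had 53.4 in replicate 2 and 47.2 in replicate 1. Replicate 2 signals over the 20 had a median of 67.9 and replicate 1 signals one of 32.4. DRE letters stood at 5 of the 20 summits and M1BP letters at 2. The RpL13 peak was shared with Dref, the gene of the factor that binds the DRE.

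Among other lists of growth genes, mitochondrial ribosomal protein genes had a member in 11 of 75 cases and a moderate peak of both lists in 6. All 11 summits were in promoters, 7 of them nearer to the start of another gene, and the strongest, mRpL34, had 83.7 in replicate 2 and no peak in replicate 1. Proteasome genes had a member in 5 of 34 cases and a peak of both lists in none (0 of 34 allows up to 8.82%), with the strongest member at Rpn5, a subunit of the regulatory lid, and at Hat1, whose start was nearer. It had 118.6 in replicate 2 and 46.0 in replicate 1. Respiratory chain genes had a member in 5 of 84 cases and a peak of both lists in 7, and translation factors in 4 and 3 of 52, with member shares near the background of 6.02%. The strongest member of these was at ND-42 (nearer to Cchl), with 130 in replicate 2 and 37.5 in replicate 1. Promoter and insulator factors had a member in 4 of 15 cases, namely M1BP, BEAF-32, Dref and pita, and a peak of both lists in 2. The M1BP peak had 127 in replicate 2 and 11.2 in replicate 1.

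Notch pathway genes had a member in 4 of 22 cases and a peak of both lists also in 4. The members, 2 of them nearer to another gene's start, were at the ligases neur and mib1, the coactivator mam and the target E(spl)mdelta-HLH, whose pooled signals ran from 79.2 to 130.8. The neur peak had 79.4 in replicate 2 and 26.8 in replicate 1. Neuroblast genes had a member in 2 of 23 cases (8.70%), brat and aPKC, and a peak of both lists in 3. The brat peak had 80.5 in replicate 2 and no peak in replicate 1. Proneural and sensory organ genes (17), temporal factors (13) and Hox genes (8) had no member within 1 kb. Neuronal differentiation genes (20) and chorion and yolk genes (17) also had none. In that order, 0 allows up to 17.6%, 23.1%, 37.5%, 15% and 17.6%, all above the background of 6.02%. A peak of both lists stood at 1 gene of the first and 1 of the fourth of these lists. Cell cycle genes had a member in 4 of 19 cases (21.1%), CycE, Dp, polo and Cdk4, and a peak of both lists in 2. The CycE peak had 123 in replicate 2 and 38.5 in replicate 1. Cell death genes had a member in 2 of 12 cases (16.7%, hid and p53) and glial genes in 2 of 13 (15.4%, loco and htl). Muscle and heart genes had a member in 1 of 16 (6.25%, htl again). A peak of both lists stood in 1, 2 and 3 cases of these lists. DNA replication, Polycomb and trithorax, and spliceosome genes each had a member in 1 of the 20 genes listed (5%), at dup, Su(z)2 and Sf3b1. A peak of both lists stood at 3, 2 and 2 of them. The Polycomb and trithorax list does not hold Sfmbt, whose member is printed above. Chemoreceptor genes had a member in 2 of 119 cases (1.68%), Gr32a and Gr63a, both nearer to another gene's start, and a peak of both lists in 1.

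**Figure D5:**
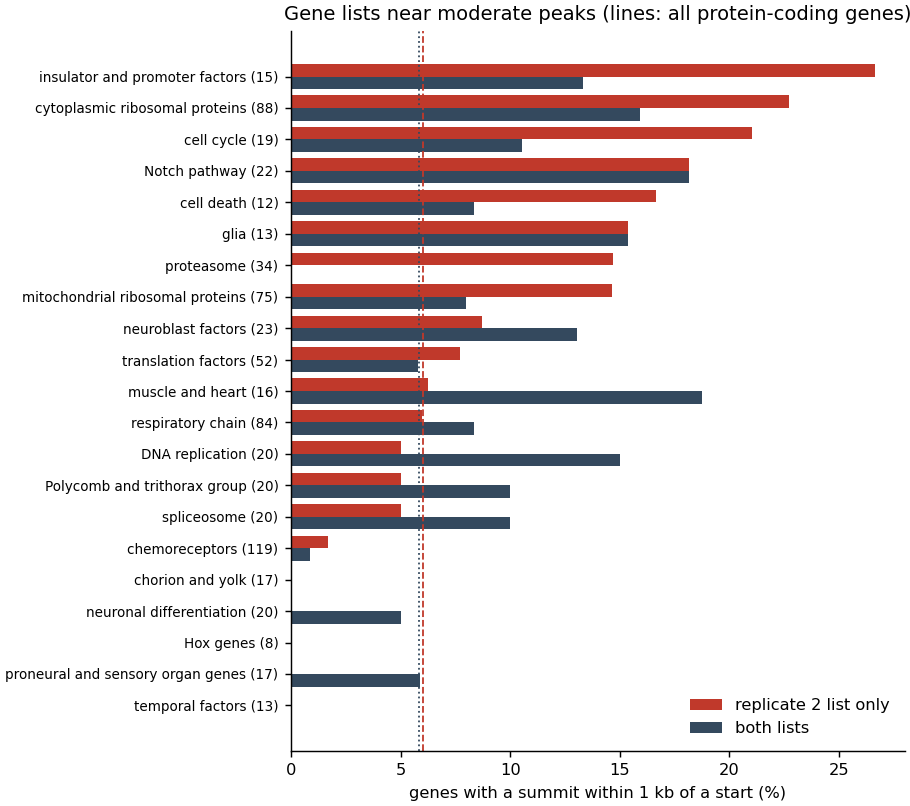
Share of the genes of each list (horizontal, %) whose start had a peak summit within 1 kb, for members (upper bar) and peaks in both lists (lower bar), with the number of genes in parentheses. Dashed and dotted lines mark the shares of all protein-coding genes, 6.02% and 5.83%, and ribosomal protein genes stand at 22.7% and 15.9%.

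Around klu itself, which lies on chromosome 3L, 17 moderate peaks lay within 20 kb, of which 5 were members, 1 in both lists, 5 in the replicate 1 list only and 6 in neither. The members there had signals of 89.9 to 136.5 and a GC content of 28.7% to 54.5%. The strongest was an intergenic peak nearest to CG14147, with 88.6 in replicate 2 and 43.3 in replicate 1. It overlapped another of the 5 members, a secondary peak of signal 116.4, so these are not separate sites. That secondary peak also had 88.6 in replicate 2 and was the one with a GC content of 28.7%. The summit 1387 bp upstream of klu had 88.0 in replicate 2 and 42.3 in replicate 1. By arm, members were 170 on X (17.9%), 169 on 2L, 190 on 2R, 211 on 3L, 212 on 3R and none on 4, which by the same limit of 3 counts allows up to 0.315%, against 21.8% on X for peaks in both lists and 26.0% for the replicate 1 list only.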

How the data were processed

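Peaks of anti-GFP ChIP-seq were analysed from 2 biological replicates, numbered 1 and 2 in the labels, which form 1 group. The authors deposited 8 peak lists in dm6, per the labels, with for each peak a score (column 5), a signal (column 7) and -log10 values, which are the authors' own. Aligner, caller and IDR settings: not given in the sources used here. In addition, the number of columns of per-sample values left unused was 0.

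A pooled peak was matched to the overlapping peak of each replicate's ranked list with the nearest summit, so that the deposited signal of each replicate is its own. Gene positions came from Ensembl release 115 (BDGP 6.54) and sequence from the RefSeq copy of BDGP release 6. GC content and motifs were read within 50 bp of the summit, flanks 1000 bp away. Intervals are 95% Wilson intervals and cover counting error over peaks only. No test was run, and overlap, GC and motif functions were checked on simulated data. Python 3.11.15, numpy 2.4.6, pandas 2.3.3, scipy 1.17.1 and matplotlib 3.10.9 were used. Named genes are those nearest to the 15 members of highest signal, up to 5 per gene list (all for ribosomal protein genes), those of members within 20 kb of klu, and those at the edges of the rule. A count of 0 is given with the limit of 3 counts of the total. The members and the gene lists were chosen with earlier results of these data known. Alternatives covered the overlap, list, signal, window and distances.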

Additional observations from a re-analysis of the deposited data

How the results depend on the processing

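The lists give no read counts, so what depth limits cannot be measured, and 1 group of 2 replicates allows no test between conditions. No paired analysis was possible because the series has 1 group. The number of members was 585 from the conservative list, and its share with a replicate 1 ranked peak was 96.4%. That share was 84.8% where at least 50% of the peak had to be covered and 88.4% where summits had to lie within 200 bp. Under the conservative list, ribosomal protein genes with a member numbered 9 and those with a moderate peak of both lists 15. The promoter share was 47.8% at 250 bp, 65.8% at 1000 bp and 53.6% in the signal range 80 to 120, which was chosen after seeing the data. The DRE share was 1.37% within 25 bp and 4.83% within 100 bp of the summit, where mean GC was 35.3%. Dropping the condition on replicate 1 or on replicate 2 gave from 1606 to 1946 members, promoter shares from 47.7% to 55.4%, GC from 34.3% to 37.4%, replicate 1 shares from 94.8% to 96.7%, DRE shares from 1.64% to 1.68% and from 24 to 34 ribosomal protein genes. The cause was not tested.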

Other observations

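Outside the main arms the pooled list held 39 peaks, of which 25 were in the replicate 1 list only, 8 in both, 4 in neither and 2 in the replicate 2 list only with a signal below 300. On the main arms the replicate 2 list only class held 952 moderate peaks and the replicate 1 list only class 204. The 2 off-arm peaks had pooled signals of 73.3 and 63.9. The cause of this difference was not tested.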
